A study of Mus musculus with 34 samples.

Results

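The genes described here are 10 that write, maintain, protect or remove methyl groups on cytosine in DNA: Dnmt1, Uhrf1, Dppa3, Dnmt3a, Dnmt3b, Dnmt3l, Tet1, Tet2, Tet3 and Tdg. They were chosen by symbol, and all 10 were present among the 49686 genes of the zygote and late 2-cell tables and the 51734 of the blastocyst table. The study sequenced RNA from 34 single mouse embryos after injection of zygotes with mRNA for the checkpoint kinase CHK1, either wild type (WT) or carrying the R442Q substitution. There were 5 WT and 6 R442Q zygotes and 4 WT and 5 R442Q late 2-cell embryos, all without inhibitor, and 7 WT and 7 R442Q blastocysts, all grown with 30 nM of a Chk1 inhibitor. WT and R442Q name the injected mRNA: every embryo received CHK1 mRNA, no uninjected embryos are among the samples used here, and the labels give no strain. Each library is 1 embryo, and whether embryos of a group came from separate litters or injection days is not stated, so the p-values measure the spread between these embryos only.

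DNMT1 copies methylation onto the new strand behind the replication fork, and UHRF1 brings it to hemimethylated sites. DPPA3 (also called STELLA), an abundant egg protein, binds UHRF1, keeps it from chromatin and protects maternal methylation from TET3. DNMT3A and DNMT3B add new methylation, helped by DNMT3L, which has no catalytic activity. TET1, TET2 and TET3 oxidise 5-methylcytosine, and TDG excises oxidised forms for base excision repair. Methylation is largely erased between fertilisation and the blastocyst, and new methylation is laid down around implantation.

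Dnmt1 lies on the minus strand at chr9:20907209-20959888 (GRCm38, GENCODE M21) and has 7 annotated transcripts, 4 of them coding. Its coding transcripts start at different sites: the one from 20959888 uses the start codon at 20941454, whereas the one from 20952979 uses that at 20952787. Mouse oocytes are known to use an upstream first exon and make a shorter protein than somatic cells. The counts are per gene and do not separate these starts. RefSeq gives 3 start sites for Dnmt1, at 20959888, 20952979 and 20952623. The windows of the first and the second are shown because both starts feed the count of Dnmt1, which was called between genotypes in zygotes. That of the third lies within the transcript from 20952979, takes in its start codon and is not printed. The windows are the 250 bases before each start (GRCm38.p6, minus strand, chr9:20959889-20960138 and chr9:20952980-20953229), written 5′ to 3′ with each CpG, the substrate of these enzymes, in capitals.
Dnmt1 upstream start: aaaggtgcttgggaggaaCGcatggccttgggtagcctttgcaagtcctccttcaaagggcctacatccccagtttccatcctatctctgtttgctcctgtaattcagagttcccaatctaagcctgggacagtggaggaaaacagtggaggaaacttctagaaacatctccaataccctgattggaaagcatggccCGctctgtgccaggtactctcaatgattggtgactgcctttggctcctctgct
Dnmt1 middle start: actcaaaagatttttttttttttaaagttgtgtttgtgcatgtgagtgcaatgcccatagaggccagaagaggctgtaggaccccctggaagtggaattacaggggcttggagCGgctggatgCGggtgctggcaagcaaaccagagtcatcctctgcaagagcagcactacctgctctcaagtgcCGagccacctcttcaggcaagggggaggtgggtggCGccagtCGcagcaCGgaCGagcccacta
The upstream window holds 2 CpG and the middle one 7. Over 32851 RefSeq windows of 250 bases the median was 6 CpG. In windows of 300 bases that also take in the first bases of the transcript, the starts at 20959888, 20952979 and 20952623 hold 2, 12 and 33 CpG, against a median of 7. No methylation was measured in these samples.

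The other members lie at chr17:56303321-56323486 (Uhrf1), chr6:122626410-122630272 (Dppa3), chr12:3806007-3914443 (Dnmt3a), chr2:153649450-153687730 (Dnmt3b), chr10:78041947-78063622 (Dnmt3l), chr10:62804570-62908996 (Tet1), chr3:133463679-133545139 (Tet2), chr6:83362373-83459084 (Tet3) and chr10:82629828-82650799 (Tdg). Some share sequence with other genes, and how reads were split between copies is not known in full. Of the 50-base stretches of its transcripts, 41.2% for Tdg (mostly with Tdg-ps), 16.5% for Dppa3 (Dppa3-ps), 15.4% for Uhrf1 (Gm5648) and 9.81% for Dnmt3b (Dnmt3c) occur in another gene. Values of Tdg, Dppa3, Uhrf1 and Dnmt3b are uncertain for this reason, by an amount that the tables do not give. Another gene lies across Dnmt3a, Dnmt3b, Dnmt3l, Tet2, Tet3 and Tdg on the other strand, and use of strand in the counting is not given in the sources used here.

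Zygote libraries held 7183632 to 11296522 counts and those of late 2-cell embryos 5727956 to 8916343; the blastocyst table gives FPKM only, so depth there is unknown. Chek1, whose coding sequence the injected mRNA carries, was at a median of 4822 FPKM in WT and 6498 in R442Q zygotes and 364 and 438 in late 2-cell embryos, which does not tell the 2 mRNAs apart. In zygotes, the summed FPKM of 6 maternal marker transcripts was 2552 to 3292 in WT and 1701 to 2469 in R442Q embryos, without overlap, and 3 of the 6 (Zp3, Ooep and Mos) were lower in R442Q. Of the 5 markers of late 2-cell genome activation tested, 4 were higher in R442Q zygotes. Of 8 cumulus cell markers, 1 averaged 1 FPKM or more in zygotes of either genotype, and their sum was 17.9 to 20.3 FPKM in WT and 12.1 to 16.9 in R442Q zygotes, without overlap. Of the 3 cumulus markers that could be tested, none was higher or lower at an adjusted p under 0.05. Their median log2 value was -0.09, against 0.01 for all genes. Ptx3 and Inha were at 0 in all WT zygotes. In late 2-cell embryos 1 of 6 maternal markers was higher in R442Q and none lower (median log2 0.48). None of 5 activation markers was called (median 1.28), and 1 of 3 cumulus markers tested was lower. The median of all genes was 0.07. The part of these markers in the late 2-cell results was not tested. Blastocysts had all 6 trophectoderm and all 6 epiblast markers at a mean of 1 FPKM or more.

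Some members had their highest mean level in the zygote and others in the blastocyst (FPKM, fragment counts scaled by transcript length and library depth). The 3 tables were normalised separately, so these levels are set side by side without a test. The blastocyst table also holds a different set of genes: Dnmt3c, which shares sequence with Dnmt3b, has no values there. In WT embryos the mean of Tet3 went from 215.8 ± 41.9 FPKM (mean ± SD, n = 5 zygotes) to 15.7 ± 2.88 (n = 4 late 2-cell) and 1.30 ± 1.40 (n = 7 blastocysts). The ranges of the stages did not overlap in either genotype. Dnmt1 was at 180.7 ± 54.5 FPKM in WT zygotes, 9.26 ± 3.21 in late 2-cell embryos and 18.8 ± 8.87 in blastocysts. Zygotes were above both later stages, whose ranges overlapped. Uhrf1 was at 134.0 ± 33.2, 15.1 ± 2.35 and 64.6 ± 48.4 FPKM in the same groups, and its blastocysts spread from 6.97 to 137.7, across the levels of both earlier stages.

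The opposite pattern was seen for Tet1, Tet2, Dnmt3b and Tdg. Tet1 averaged 8.01 ± 3.47 FPKM in WT zygotes, 15.2 ± 3.10 in late 2-cell embryos and 76.3 ± 32.7 in blastocysts. Tet2 averaged 1.61 ± 1.01, 3.21 ± 2.15 and 19.3 ± 2.48. For both genes the WT blastocysts lay above all earlier WT embryos, and the zygote and late 2-cell ranges overlapped. Dnmt3b was at 5.49 ± 1.93, 4.97 ± 1.08 and 45.6 ± 26.3 FPKM. Tdg was near the detection limit in zygotes: 2 of 5 WT and 3 of 6 R442Q zygotes had a count of 0, which allows 0.266 to 0.418 CPM at these depths (CPM is the count scaled by the library's total; limit of 3 counts, counting error only). In WT blastocysts Tdg reached 43.9 ± 21.7 FPKM, with the lowest embryo at 18.4. In blastocysts, which hold several cell types, fewer cells of a type and less RNA per cell cannot be told apart.

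Dppa3 was the most abundant member at every stage, ranking between 10 and 24 among all genes by group mean. Its WT means were 3816 ± 148, 2450 ± 423 and 4038 ± 3207 FPKM, and the WT blastocysts ranged from 1819 to 11007. In R442Q embryos the means were 4662 ± 202, 4977 ± 1083 and 4861 ± 1973 FPKM, with overlapping ranges. The order of stages for Dppa3 depended on scaling: with each column scaled to the same sum over shared genes, the WT zygote mean (5824) was above that of blastocysts (4092). The R442Q means scaled in this way were 7109, 5730 and 4729, and every R442Q zygote lay above every R442Q late 2-cell embryo. Dnmt3a (77.0 ± 14.6, 25.7 ± 8.08 and 29.5 ± 12.7 FPKM) and Dnmt3l (99.5 ± 16.7, 47.6 ± 22.8 and 83.4 ± 33.1) had their highest mean in zygotes. For both genes the late 2-cell and blastocyst ranges overlapped, and for Dnmt3l the zygote range also met that of blastocysts.

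**Figure D1:**
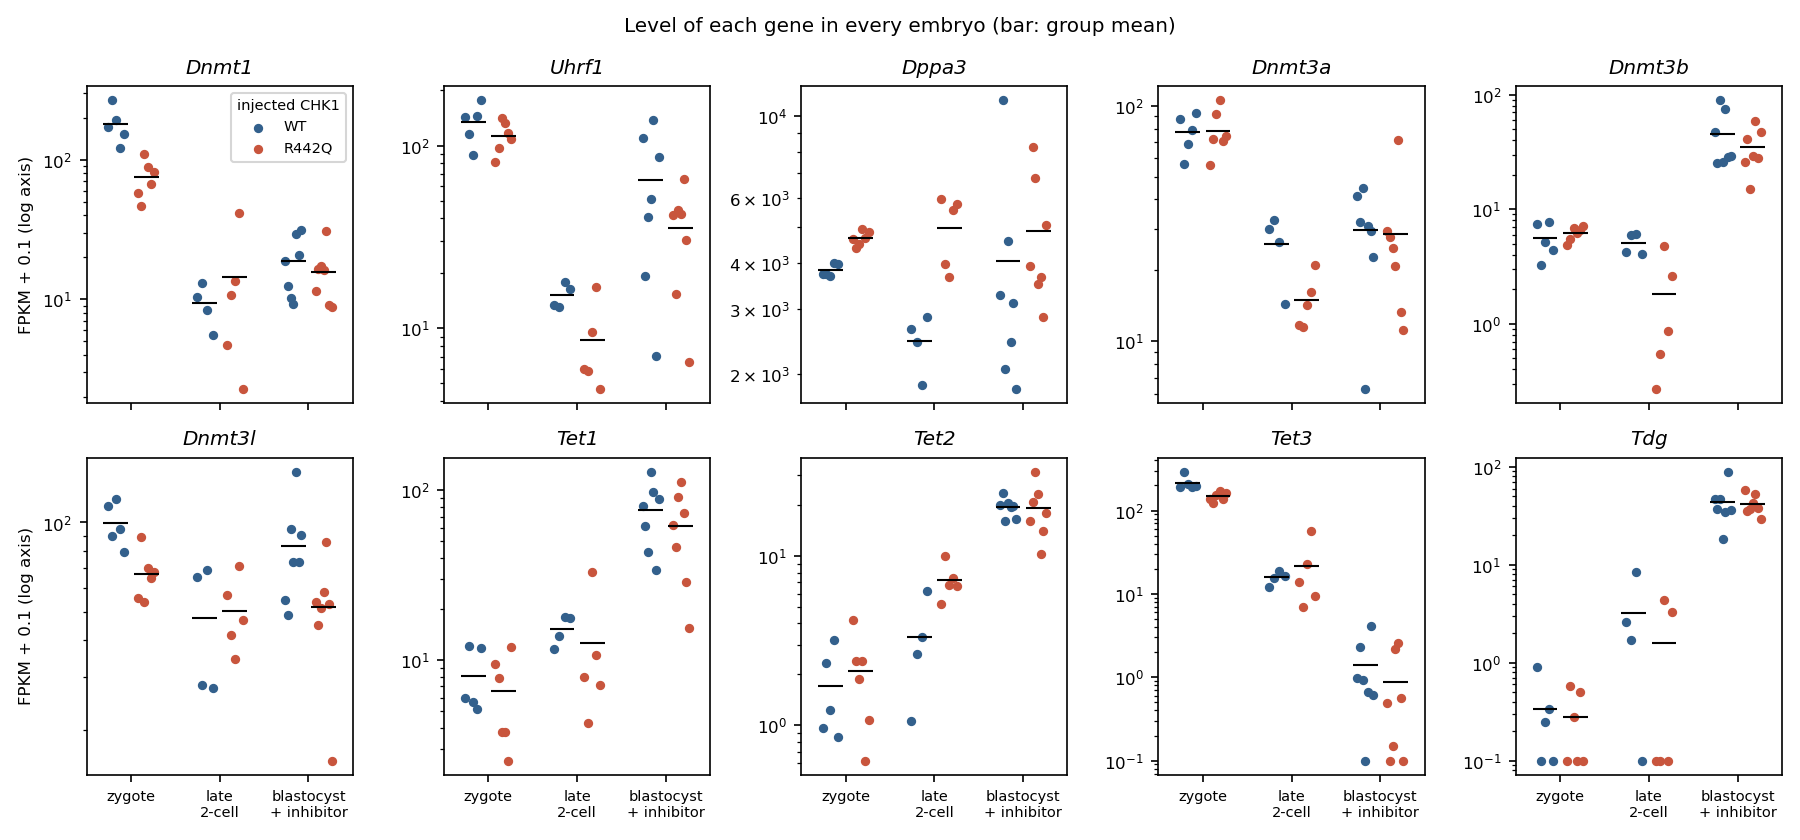
FPKM + 0.1 (log axis) of the 10 genes in each of 34 embryos, by stage and injected CHK1 mRNA; points are embryos and bars are group means. Tet3 descends through the 3 stages, whereas Tet1, Tet2, Dnmt3b and Tdg have their highest group means in blastocysts, and Dppa3 is at 1819 FPKM or more in every embryo.

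Within families the dominant gene changed. Tet3 made up 95.8% ± 1.14 (SD, n = 5) of the summed Tet1, Tet2 and Tet3 FPKM in WT zygotes, 46.4% ± 3.81 in late 2-cell embryos (n = 4) and 1.83% ± 2.44 in blastocysts (n = 7). Tet1 took 3.51% ± 1.28, 44.8% ± 1.78 and 76.3% ± 9.73. In R442Q embryos Tet3 likewise took 94.5% ± 2.83 in zygotes and 0.861% ± 1.07 in blastocysts. Their late 2-cell shares spread more widely than in WT, and the mean share of Tet1 was lower (29.5% ± 14.8) and that of Tet2 higher (23.1% ± 15.5, against 8.82% ± 4.71); these differences were not tested. Tet3 took between 32.7% and 75.9% of the sum in R442Q embryos against 40.8% to 48.8% in WT. Dnmt3a made up 93.4% ± 1.75 of the summed Dnmt3a and Dnmt3b FPKM in WT zygotes, 83.1% ± 4.18 in late 2-cell embryos and 39.9% ± 13.0 in blastocysts. Shares are unaffected by the scaling of a column, but follow each gene's length model.

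**Figure D2:**
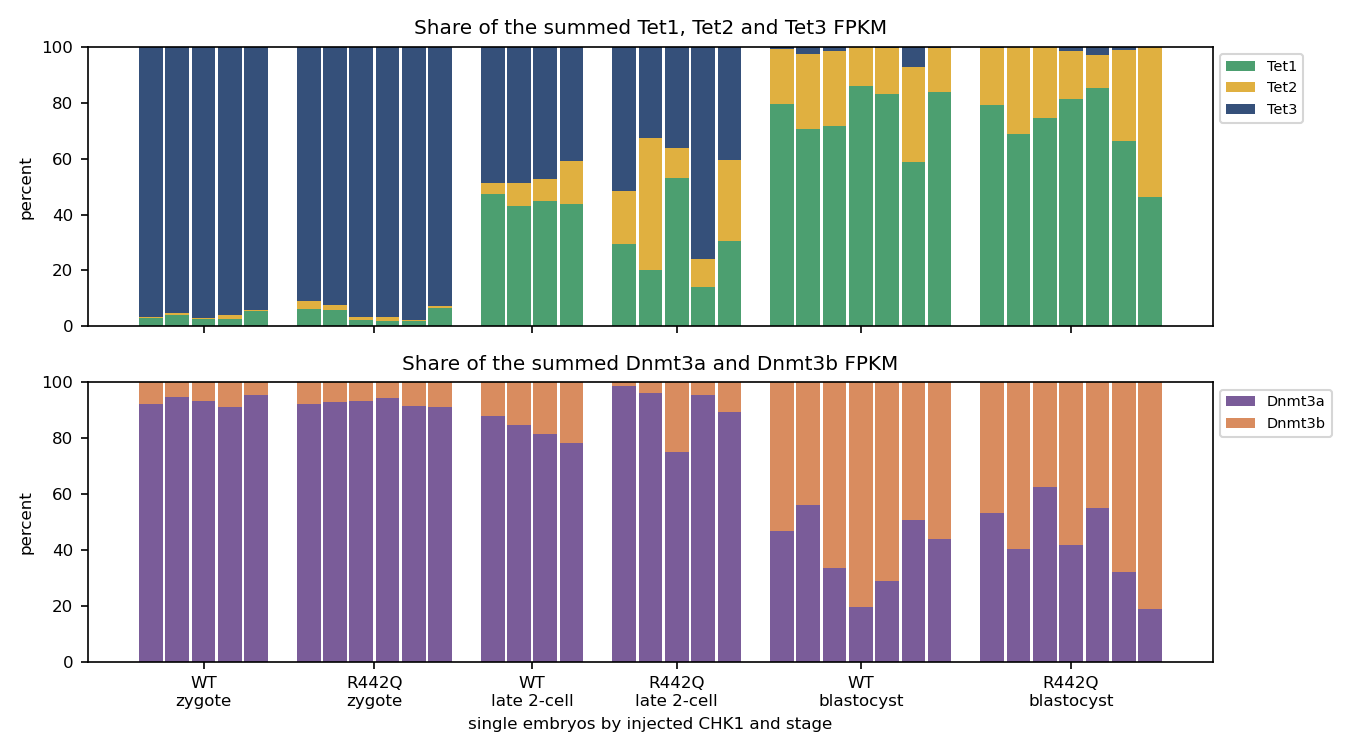
Percent of the summed TET FPKM (top) and of the summed Dnmt3a and Dnmt3b FPKM (bottom) held by each gene, one bar per embryo, grouped by injected CHK1 mRNA and stage. Tet3 fills over 91% of every zygote bar and at most 7.04% of any blastocyst bar, and Dnmt3b rises from under 9% in zygotes to 37.4% or more in blastocysts.

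The change from zygote to late 2-cell embryo could be tested because counts exist for both stages; a model of all 4 groups was fitted with edgeR's quasi-likelihood test, and genes passed at an adjusted p under 0.05 (Benjamini-Hochberg, 16199 genes). Stage and table cannot be told apart, and changes are relative to TMM-scaled library totals. Printed CPM are scaled by the total alone, so their ratios differ somewhat from the fitted folds. In WT embryos 6 of the 10 members fell and 1 rose, where 61.2% of all tested genes passed, 25% lower and 36.2% higher. Dnmt1 fell by 4.01 ± 0.49 on the log2 scale (SE; adjusted p = 2.58e-07), Uhrf1 by 3.28 ± 0.31 and Tet3 by 3.09 ± 0.37. Dnmt3a fell by 1.47 ± 0.23, Dnmt3l by 1.09 ± 0.28 and Dppa3 by 0.68 ± 0.19 (adjusted p = 0.00339). Tet1 rose by 2.35 ± 0.49. The size of its rise depended on the unit: mean CPM went from 10.2 to 54.3 and mean FPKM only from 8.01 to 15.2, while the length in bases that links count to FPKM went from 1268 to 3605. The median over all genes was 0.34, and the values for Dnmt3b (-0.11 ± 0.54), Tet2 (0.40 ± 0.50) and Tdg (2.91 ± 1.54) did not pass.

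In R442Q embryos 6 members again fell and 1 rose, where 65.1% of all genes passed, 29.8% lower and 35.3% higher. Dnmt3b, which did not pass in WT, fell by 1.93 ± 0.51 (adjusted p = 0.00214), and Dppa3, which fell in WT, was at -0.13 ± 0.17 (adjusted p = 0.489). Tet1 rose by 1.44 ± 0.43; without R442Q late 2-cell replicate 3 its value was 0.86 (adjusted p = 0.0504). None of the 10 members passed the test of the difference between the 2 stage changes, which 10.1% of all genes did (3.07% higher, 7.05% lower; 3997 had an unadjusted p under 0.05). The closest were Dnmt3a (-0.82 ± 0.29, adjusted p = 0.0805), Dnmt3b (-1.83 ± 0.73, adjusted p = 0.113) and Dppa3 (0.54 ± 0.25, adjusted p = 0.178). Without R442Q late 2-cell replicate 3, the library with the most genes detected (16211 at 1 FPKM or more, against 11984 to 14210 in the other late 2-cell embryos), Dnmt3b (-2.30, adjusted p = 0.0253) and Dppa3 (0.84, adjusted p = 0.0147) passed. The median of all genes for this difference was -0.16, and -0.01 with median-ratio size factors. Of the genes that passed, 30.3% were higher, and 43.5% with those factors.

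**Figure D3:**
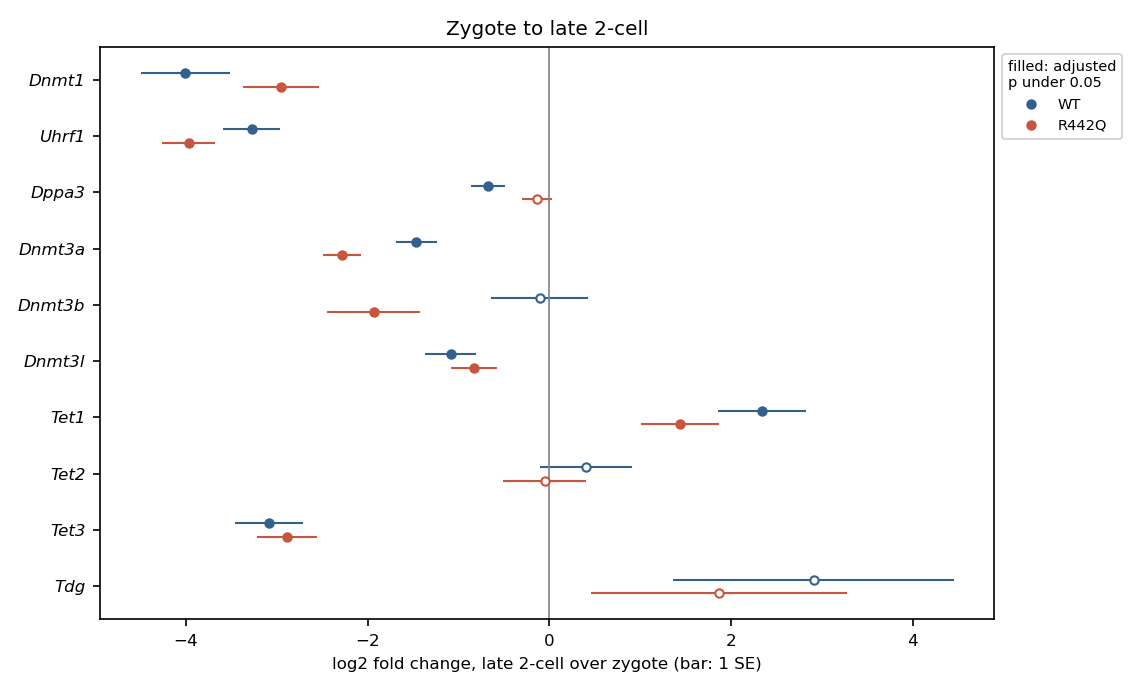
Log2 fold change from zygote to late 2-cell embryo with 1 SE, for WT and R442Q embryos; filled points passed an adjusted p of 0.05. Dnmt1, Uhrf1 and Tet3 lie near -3 to -4 in both genotypes, Tet1 lies above 0 in both, and the bars for Tdg are the widest.

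R442Q and WT zygotes were compared next. Of 9 members tested (Tdg was too low), 2 passed: Dnmt1 was lower and Dppa3 higher in R442Q zygotes. Of 12420 genes, 13.2% were called, 6.92% lower and 6.3% higher, and with so few members the count of 2 is not far from that background. Dnmt1 had 582.5, 788.2, 609.2, 380.9 and 551.0 CPM in the WT zygotes and 162.2, 165.7, 323.0, 244.6, 210.5 and 204.1 in the R442Q zygotes. Every R442Q zygote lay below every WT zygote; the genotypes did not overlap for 9.39% of all genes. Dnmt1 was 2.45-fold lower in R442Q zygotes (log2 -1.29 ± 0.17 SE, adjusted p = 0.000272, edgeR). Dppa3 had 2383, 2394, 2383, 2596 and 2580 CPM in WT and 3083, 2870, 2965, 3241, 3089 and 3176 in R442Q zygotes, again without overlap. Its difference was small against its level, 1.35-fold (log2 0.44 ± 0.08, adjusted p = 0.00191). Dnmt1 and Dppa3 both passed in each of 11 fits without 1 zygote, and neither passed when the 2 stages were fitted in 1 model (adjusted p = 0.099 and 0.195), with log2 values of -1.27 and 0.47. The lower maternal and cumulus marker sums and higher activation markers in the R442Q zygotes lie beside both results, and their part in them was not tested.

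Uhrf1, the partner of DNMT1, was at 433.6 ± 108 CPM (n = 5) in WT and 367.2 ± 71.9 (n = 6) in R442Q zygotes and did not pass (log2 -0.13 ± 0.17, adjusted p = 0.675). The ratio of Uhrf1 to Dnmt1 FPKM was thus 0.434 to 1.20 in WT and 1.27 to 2.10 in R442Q zygotes. Tet3, the main TET gene of the zygote, had 693.2, 1068, 801.1, 745.4 and 632.7 CPM in WT and 516.9 to 678.2 CPM in R442Q zygotes; the lowest WT embryo lay below the highest R442Q embryo. Its difference missed the threshold (log2 -0.30 ± 0.11, adjusted p = 0.0893), and passed with limma on FPKM (adjusted p = 0.0132), with the number of genes detected as a covariate (0.046) and without WT replicate 5 (0.0498). Dnmt3l (117.3 ± 17.7 against 86.2 ± 13.1 CPM; log2 -0.33 ± 0.14, adjusted p = 0.133) likewise passed only with limma on FPKM (0.0189). Dnmt3a, Dnmt3b, Tet1 and Tet2 lay between 0.02 and 0.34 on the log2 scale, with adjusted p from 0.543 to 0.979.

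**Figure D4:**
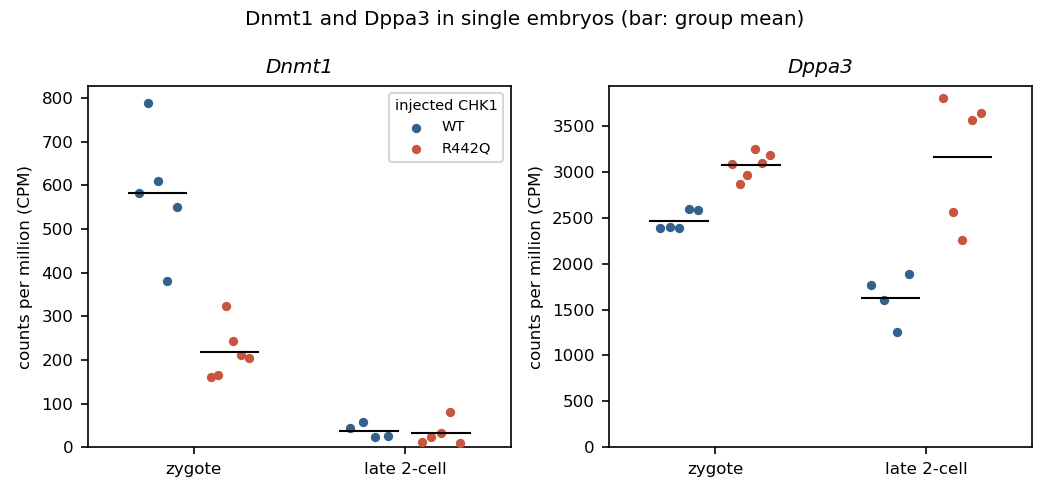
CPM of Dnmt1 (left) and Dppa3 (right) in each zygote and late 2-cell embryo, by injected CHK1 mRNA, with the group mean as a bar and both axes from 0. In zygotes the R442Q points lie below the WT points for Dnmt1 and above them for Dppa3; in late 2-cell embryos Dppa3 is again separated and Dnmt1 is not.

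In late 2-cell embryos no member passed, where 4.18% of 13883 genes did, 1.22% higher and 2.95% lower (0 of 10 members; 1 with DESeq2; 2910 genes had an unadjusted p under 0.05). The test has little power for moderate changes at this stage, so a member that missed the threshold is not shown to be unchanged. Dppa3 was the 1 member of 10 whose embryos did not overlap, as for 12.4% of all genes, so that count is not above the background. It had 1771, 1607, 1255 and 1883 CPM in WT and 3804, 2559, 2251, 3559 and 3641 CPM in R442Q embryos. The difference was 2.1-fold (log2 1.07 ± 0.30, edgeR adjusted p = 0.0604). It passed with DESeq2 (adjusted p = 0.00403), in the model of both stages (0.000879) and without R442Q replicate 3 (0.0175), and its value was near 0 when each library's trend of counts on GC content and transcript length was removed (log2 -0.06, adjusted p = 0.958). In this comparison fold changes over 13784 genes correlated with GC content (Pearson r = -0.269) and log2 length (-0.305), against -0.027 and -0.029 in zygotes; genes are not independent replicates. Dppa3 is the shortest member, with a longest transcript of 833 bases at 45.3% GC. The trend was fitted to each library without regard to genotype. Its removal would also take out a genotype effect that runs with GC content or length. The 2 cannot be told apart here, and the part of the trend in the Dppa3 difference was not tested. With the trend removed the share of called genes that were higher went from 29.3% to 62.2% and the median of all genes from 0.07 to 0.22.

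Dnmt3b had 16.4, 22.5, 23.6 and 15.7 CPM in WT late 2-cell embryos and 0.706, 1.75, 17.3, 3.16 and 10.2 CPM in R442Q embryos. Of the R442Q embryos, 4 lay below all WT embryos and 1 lay within them, and the difference did not pass (log2 -1.53 ± 0.74, adjusted p = 0.257). Dnmt3a was at 69.99 ± 16.7 CPM (n = 4) in WT and 43.8 ± 7.34 (n = 5) in R442Q embryos (log2 -0.58 ± 0.30, adjusted p = 0.294), and Uhrf1 at 47.2 ± 7.19 and 26.7 ± 14.5 (log2 -0.74 ± 0.39, adjusted p = 0.306); both changed sign with the GC and length trend removed (0.37 and 0.31, adjusted p = 0.715 and 0.823). In the model of both stages Dnmt3a passed (-0.64, adjusted p = 0.0488) and Uhrf1 did not (adjusted p = 0.0616). Tet1 was at 54.3 ± 12.3 CPM in WT and 30.4 ± 27.4 in R442Q embryos (adjusted p = 0.357). R442Q replicate 3, at 78.5 CPM, was above every WT embryo, and the other R442Q embryos, at 12.6 to 24.4, below all of them; without it Tet1 passed (log2 -1.43, adjusted p = 0.044). Dnmt1 ran from 23.6 to 57.05 CPM in WT and from 9.76 to 81.6 CPM in R442Q embryos and did not pass (log2 -0.17 ± 0.56, adjusted p = 0.901; 1.10 with the GC and length trend removed, adjusted p = 0.472). Its change in effect from zygotes to this stage was 1.06 ± 0.57 and did not pass either (adjusted p = 0.259).

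Counts and FPKM ordered the genotype means differently for 4 members in late 2-cell embryos: Tet2, Dnmt1, Tet3 and Dnmt3l. For Dnmt1 the means were 38.0 and 32.2 CPM in WT and R442Q embryos but 9.26 and 14.4 FPKM, and for Tet3 97.3 and 89.9 CPM but 15.7 and 21.8 FPKM. For Dnmt3l they were 59.3 and 55.0 CPM but 47.6 and 50.2 FPKM. By CPM Tet2 was at 7.84 ± 2.92 in WT and 7.28 ± 3.89 in R442Q embryos, but by FPKM at 3.21 ± 2.15 and 7.10 ± 1.75. The length in bases that links the count to the FPKM was 1812 to 5729 in WT and 512.1 to 1434 in R442Q embryos, without overlap. The test uses counts. The sum of FPKM over all genes also differed at this stage, 712234 to 742246 in WT and 814376 to 976830 in R442Q embryos. Tdg had a count of 0 in 1 of 4 WT and 3 of 5 R442Q late 2-cell embryos, and its difference carried a wide error (log2 -1.73 ± 1.54).

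Among inhibitor-treated blastocysts, none of 9 members tested by limma on log2(FPKM + 1) passed (Tet3 was too low, at 0 to 4.06 FPKM). Of all 11297 genes, 1 passed (0.00885%) and 836 had an unadjusted p under 0.05. The genotypes overlapped for all 9 members, as they did for all but 0.416% of genes. Dnmt3l came closest, with a lowest, median and highest value of 48.5, 73.6 and 147.8 FPKM in WT and 15.6, 53.0 and 85.9 in R442Q blastocysts (log2(FPKM + 1) difference -0.72 ± 0.32, unadjusted p = 0.0402, adjusted p = 0.646). R442Q replicate 7 was the lowest R442Q blastocyst for Dnmt3l, Uhrf1, Tet1, Dnmt3a, Dnmt1 and Tdg. It had 8189 genes at 1 FPKM or more, against 10962 to 12182 in the other R442Q blastocysts and 9852 to 12191 in WT. Without R442Q replicate 7 the difference was -0.46 for Dnmt3l and -0.31 for Uhrf1. Over the 14 fits without 1 blastocyst Uhrf1 ran from -1.06 (without WT replicate 6) to that value, and Dnmt3l from -0.86, with no call. Dnmt1 ran from 9.17 to 31.1 FPKM in WT and from 8.68 to 30.8 in R442Q blastocysts (-0.23 ± 0.35, adjusted p = 0.927). Dppa3 had a median of 3108 FPKM in WT and 3928 in R442Q blastocysts (0.45 ± 0.35, adjusted p = 0.838). Uhrf1 had medians of 51.2 and 41.6 FPKM and the widest error (-0.64 ± 0.60, adjusted p = 0.877), and Tet1 medians of 81.3 and 62.5 FPKM (-0.43 ± 0.40, adjusted p = 0.877). The remaining members, Dnmt3a, Dnmt3b, Tet2 and Tdg, lay between -0.31 and 0.02, with adjusted p from 0.897 to 0.991. For Dppa3 the standard error here was 0.35, against 0.08 in zygotes. The zygotes and late 2-cell embryos had no inhibitor, so stage and inhibitor cannot be told apart.

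**Figure D5:**
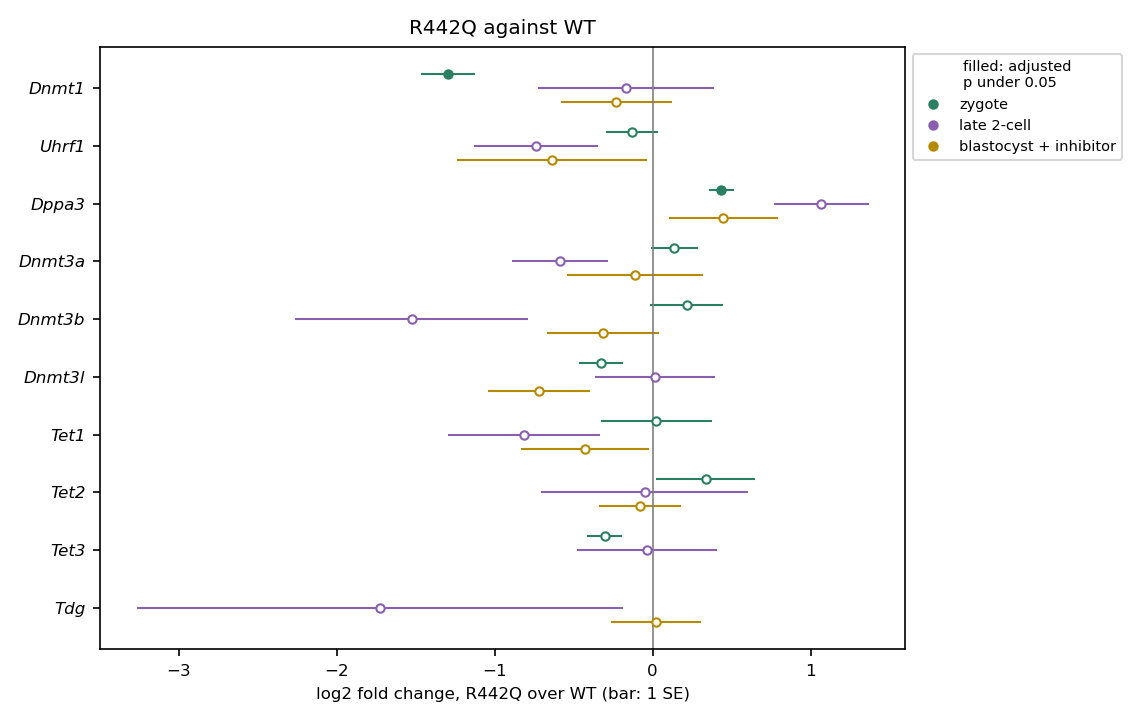
Log2 fold change of R442Q over WT embryos with 1 SE for each gene and stage (blastocysts: difference in log2(FPKM + 1)); filled points passed an adjusted p of 0.05. The 2 filled points are Dnmt1 and Dppa3 in zygotes; Tdg was not tested in zygotes, nor Tet3 in blastocysts.

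Genes that work with the members were taken from 6 lists. In zygotes 9 of 62 tested list genes passed (14.5%, against 13.2% of all genes). Among the imprint and heterochromatin guards 4 of 7 tested genes were lower in R442Q and none higher, against 6.92% of all genes lower; the list's median was -0.52 against 0.01 for all genes. The lists were chosen with earlier results of these data known, and this is 1 of 6. Its share is therefore a description and not a test of the list. In the same zygotes 3 of 6 maternal markers were lower (median -0.67) and 4 of 5 activation markers were higher. The cumulus marker sum was lower without overlap, but none of the 3 cumulus markers tested passed (median -0.09). The part of these markers in the guards' result was not tested. Setdb1, an H3K9 methyltransferase, was at 276.2 ± 33.8 CPM in WT and 155.4 ± 26.9 in R442Q zygotes (log2 -0.71 ± 0.12, adjusted p = 0.00135). Trim28, the corepressor that recruits it, was at 20.7 ± 6.83 and 9.8 ± 4.46 CPM (-0.95 ± 0.30, adjusted p = 0.0426), and missed the threshold in 6 of 11 fits without 1 zygote (adjusted p up to 0.132, without WT replicate 2). Ehmt1, an H3K9 methyltransferase, was at 56.5 ± 2.45 and 30.8 ± 7.99 CPM (-0.76 ± 0.17, adjusted p = 0.00691). The remaining gene of the 4 was Atrx, a remodeller that loads histone H3.3 (-0.52 ± 0.15, adjusted p = 0.0296), named after its value was seen. In the model of both stages Setdb1 passed (adjusted p = 0.0474), and Ehmt1 (0.272) and Trim28 (0.123) did not.

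In the other lists, of 9 maintenance partners 1 was lower (Dmap1, a DNMT1-binding repressor, log2 -0.84 ± 0.24, adjusted p = 0.0264, and up to 0.0713 in 6 of 11 fits without 1 zygote that missed the threshold). Of 9 genes for chromatin that directs new methylation 1 was lower (Kdm2b, which binds unmethylated CpG islands; named after its value was seen). Of 18 tested base excision and demethylation partners 1 was higher (Gadd45g, likewise named afterwards) and 1 lower (Ogt, the O-GlcNAc transferase that binds TET proteins, 63.7 ± 6.7 against 34.1 ± 6.83 CPM, adjusted p = 0.00226). Of 12 genes for methyl donor and 2-oxoglutarate supply 1 was higher (Shmt2, mitochondrial serine hydroxymethyltransferase, 76 ± 6.85 against 99.9 ± 13.0 CPM, adjusted p = 0.0161), and of 7 methyl-CpG readers none passed. In the model of both stages Dmap1 (adjusted p = 0.387), Ogt (0.099) and Shmt2 (0.421) missed the threshold.

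In late 2-cell embryos 4 of 65 tested list genes passed (6.15%, against 4.18% of all genes), with none among the readers and the methyl donor genes. Pcna, the replication clamp that also tethers DNMT1, was at 168.2 ± 31.3 CPM in WT and 341.1 ± 60.8 in R442Q embryos (log2 1.12 ± 0.29, adjusted p = 0.0455). Zfp57, which guards imprints, was at 202.5 ± 18.3 and 428.7 ± 134.8 CPM (1.19 ± 0.31, adjusted p = 0.0464). Lower were Ung, a uracil glycosylase, at 57.3 ± 14.01 and 18.2 ± 3.95 CPM (-1.56 ± 0.35, adjusted p = 0.0251), and Kdm2b, at 87.3 ± 24.5 and 26.7 ± 12.7 CPM (-1.60 ± 0.41, adjusted p = 0.0436). With the GC and length trend removed all 4 missed the threshold (adjusted p from 0.154 to 0.635). Zfp57 (1.19) kept its size and Ung was at -1.24, whereas Pcna (0.41) and Kdm2b (-0.67) were smaller. Over 8 other settings with every embryo kept, that one included, Zfp57 missed the threshold in 5, Pcna and Kdm2b in 4 each and Ung in 2. Without WT replicate 2 their adjusted p was 0.101 to 0.148. Of 9 fits without 1 embryo, Pcna missed the threshold in 8, Zfp57 and Kdm2b in 7 each and Ung in 3. In blastocysts no list gene passed the limma test.

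From zygote to late 2-cell, 41 of 65 list genes passed in WT embryos (63.1%, against 61.2% of all genes) and 48 in R442Q embryos (73.8%, against 65.1%). Of the list genes 27.7% were higher and 35.4% lower in WT, where 36.2% and 25% of all genes were. In R442Q embryos 27.7% of the list genes were higher and 46.2% lower, where 35.3% and 29.8% of all genes were. The base excision and demethylation partners had 6 genes higher and 8 lower of 19 in WT embryos, and 6 and 10 in R442Q embryos. The guards had 2 higher and 3 lower of 8 in WT and 2 and 5 in R442Q, and the chromatin genes 2 and 3 of 9 in WT and 1 and 5 in R442Q. Maintenance partners had 2 and 2 of 9 in WT and 3 and 3 in R442Q, and methyl donor genes 5 and 6 of 13 in both. The 7 readers had 1 higher and 1 lower in both. Gadd45b, a stress-induced gene tied to demethylation, rose from 3.24 ± 1.34 to 290.5 ± 117.5 CPM in WT (log2 6.38 ± 0.49) and from 4.15 ± 1.44 to 190.4 ± 127.3 in R442Q embryos. Uhrf2, the paralogue of Uhrf1, rose by 4.90 ± 0.75 and 4.97 ± 0.68 while Uhrf1 fell. Zfp57 fell by 4.49 ± 0.25 in WT and 3.48 ± 0.22 in R442Q embryos, and Neil3, a DNA glycosylase, by 4.90 ± 0.31 and 3.81 ± 0.26. Idh2, which makes 2-oxoglutarate, the TET co-substrate, in mitochondria, rose from 0.0518 ± 0.0710 to 19.9 ± 11.4 CPM in WT embryos and from 0.364 ± 0.440 to 9.77 ± 4.14 in R442Q embryos. Idh1, of the same list, went the other way in WT embryos, from 36.4 ± 3.65 to 6.64 ± 6.31 CPM (log2 -2.58 ± 0.44).

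Across the 20 zygotes and late 2-cell embryos, the genes whose log2 CPM was most like that of Dnmt1 were Timeless (Pearson r = 0.972), Bbs4 (0.967) and Lpin2 (0.958), of 3912 genes. For Tet3 they were Lmo7 (0.981), D6Ertd527e (0.981) and Nlrp4a (0.979), and for Dppa3 Cox5a (0.933), Snrpf (0.93) and Magoh (0.924). The points share stage, genotype and library depth. With group means subtracted, the nearest genes were Cnot3 (0.892) for Dnmt1, E330021D16Rik (0.897) for Tet3 and Cox5a (0.921) for Dppa3.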

How the data were processed

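Libraries were made from single embryos by SMART-seq2 and Tn5 tagmentation and sequenced on a HiSeq X-10, per the labels' protocols. The deposited zygote and late 2-cell tables hold estimated counts and FPKM per gene; the blastocyst table holds FPKM. RSEM and mm10 are named in the submitters' processing notes; aligner, annotation and use of strand are not given in the sources used here. Counts were rounded. Each of those stages was fitted with edgeR 4.0.16 (filterByExpr, TMM factors, quasi-likelihood test), and both in a model of 4 groups; blastocysts were fitted with limma 3.58.1 on log2(FPKM + 1) for genes at 1 FPKM or more in at least 7 embryos. P-values were adjusted by Benjamini-Hochberg over all tested genes. Alternatives were DESeq2 1.42.0, other size factors, filters and pseudocounts, GC and length offsets, covariates and fits without 1 embryo. CPM is the count scaled by the library total. Named list genes were the 5 largest rises and falls past the threshold per comparison with at least 5 CPM (2 FPKM in blastocysts) in the higher group; others are marked. Markers and likeness genes followed written lists and rules. The members and lists were chosen with earlier results of these data known. Fits were tested on simulated data, first with 1 common dispersion; after few changed genes were recovered at the late 2-cell stage, gene-wise dispersions were added, and both were kept. With either, almost none of the smaller changes was recovered at that stage or for the stage difference, so a gene that missed the threshold there is not shown to be unchanged. No column was left unmapped.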

Additional observations from a re-analysis of the deposited data

Results flagged for a closer look

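Of 60 groups of embryos checked for a single distant value (10 genes in 6 groups), 3 were marked, as chance would mark about 1 in 20. Dnmt3a in WT blastocyst replicate 4 was far below the others at 6.18 FPKM. Dnmt3l in R442Q blastocyst replicate 7 was far below the others at 15.6 FPKM. Tdg in R442Q zygote replicate 2 was above the others at 1.09 CPM, a level of few reads.

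For 8 list genes the R442Q effect differed between late 2-cell embryos and zygotes in the edgeR test of that difference (log2, late 2-cell minus zygote), as for 10.1% of all genes. It was higher at the late 2-cell stage for Neil3 (1.09), Zfp57 (1.02) and Pcna (1.01). It was lower for Kdm2b (-1.24), Ddb1 (-1.39), Dcaf1 (-1.81), Ung (-2.01) and Daxx (-2.02). Ung, Daxx, Zfp57 and Pcna passed in all 20 fits without 1 embryo; Kdm2b missed the threshold in 18 of them, Neil3 in 12, Ddb1 in 10 and Dcaf1 in 6. Of 4 other settings with every embryo kept, Kdm2b missed it in 4, Neil3 and Pcna in 2 each and Zfp57 in 1. In the same edgeR test 2 of 6 maternal markers were higher and none lower (median 1.231, against -0.16 for all genes). None of 5 activation markers passed (median -1.215). The part of these markers in the results for the 8 genes was not tested.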

How the results depend on the processing

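Of 569 values recomputed with every embryo kept, 485 held their direction and side of the threshold, and of 1176 without 1 embryo 1047 did. In all, 62 reversed; none of those had passed or passed after reversal (lowest adjusted p 0.2). Member counts: zygotes 4 with limma on FPKM and 0 with both stages in 1 model (all genes 270); late 2-cell 1 with DESeq2 (all genes 1683) and 2 in the model of both stages (2507); stage difference 1 with DESeq2. Late 2-cell genes called were 889 without the filter, 111 with GC and length removed and 58 with the replicate block, whose stage difference called 1085 genes. Same-numbered embryos did not deviate together (correlations -0.168 to 0.207), so the block pairs only numbers; it gave 2 zygote members and 0 late 2-cell members. Blastocyst genes called were 0 with no filter or with the block and 5 with TMM factors or array weights. Scaling all columns to one sum over shared genes raised early means, in WT zygotes to 328.8 FPKM for Tet3 and 275.3 for Dnmt1.

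Without 1 embryo, late 2-cell genes ran from 142 (without WT replicate 2) to 891 (without R442Q replicate 3) with 0 to 2 members, the stage difference from 1089 to 2311 with 0 to 2 members, and blastocyst genes from 0 to 30 (without WT replicate 7).

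Reversed log2 values were, in zygotes, Tet1 at -0.0108 without the filter, -0.18 with the block, -0.0064 with GC and length removed and -0.35 with limma. In late 2-cell embryos Dnmt3l was -0.0478 without the filter, -0.17 with genes detected as covariate and -0.0335 in the model of both stages; Tet2 was 0.0567 with the block, 0.0323 with the covariate, 0.32 with GC and length removed and 1.07 with limma; Dnmt1 was 1.10 and 0.088 and Tet3 1.23 and 0.08 with those last settings; Dnmt3a was 0.37, Uhrf1 0.31 and Dppa3 -0.0594 with GC and length removed. Tet2 was 0.069 with median-ratio factors and 0.0694 with DESeq2 for the R442Q stage change, and 0.0356 in blastocysts with TMM factors, where Dnmt3a was 0.0086.

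Ranges without 1 embryo were, for zygotes, Tet1 -0.16 to 0.23; for late 2-cell, Dnmt1 -0.89 to 0.13, Dnmt3l -0.19 to 0.22, Tet2 -0.23 to 0.19 and Tet3 -0.63 to 0.16; for blastocysts, Dnmt3a -0.43 to 0.0653, Tdg -0.16 to 0.21 and Tet2 -0.21 to 0.0461; for the WT stage change, Dnmt3b -0.42 to 0.0484; for the R442Q stage change, Dppa3 -0.25 to 0.0657 and Tet2 -0.25 to 0.17; for the stage difference, Tdg -2.04 to 0.68 and Tet3 -0.28 to 0.56. The share of called genes that were higher was 47.7% in zygotes (25% with limma on FPKM, 73% with both stages) and 30.3% for the stage difference (43.5% with median-ratio factors). The cause of these shifts was not tested. Low counts limit Tdg (median 0.5 in R442Q zygotes), Tet2 and, in R442Q late 2-cell embryos, Dnmt3b (median 18.9).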
